A study of Caenorhabditis elegans with 8 samples.

Results

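The genes described here are the nhr genes of Caenorhabditis elegans, which encode the numbered members of its nuclear hormone receptor family. They are all genes of the deposited tables whose symbol in the WBcel235 annotation is nhr- followed by a number. There are 269 of them among the 46904 genes of the tables, and all 269 are annotated as protein coding. The naming rule uses no measured value, but it was set with earlier results of these data known.

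Nuclear hormone receptors are transcription factors that bind DNA through a zinc finger domain and, in many members, a small lipophilic ligand through a second domain. The nematode family is far larger than that of insects or vertebrates, and most of its members derive from an ancestor related to the vertebrate receptor HNF4. In the worm, members of the family are known to direct fat desaturation and oxidation, the response to fasting, propionate breakdown, detoxification, moulting and the choice between reproductive growth and dauer arrest.

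RNA was sequenced from whole bodies of day 1 adults of 4 genotypes, 1 strain each, with 2 libraries per genotype that the labels call independent biological repeats. The hel-1;daf-2 double mutant (strain IJ1121) carried mutations in 2 genes: hel-1(gk148684), in the gene for an RNA helicase of the DEAD-box type, and daf-2(e1370), in the gene for the insulin/IGF-1 receptor. The daf-2 mutant (CF1041) carried daf-2(e1370) alone, the hel-1 mutant (IJ501) carried hel-1(gk148684) alone, and the wild type was N2. The study asked how hel-1 mutation changes gene expression in wild-type and in daf-2 worms. The wild-type libraries were the control of both single mutants, and the libraries of each single mutant were a control of the double mutant, so the comparisons below share samples.

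The libraries held between 31555368 and 37552513 counts. Levels are given in CPM, counts scaled to the size of the library, and 1 CPM stood for 31.7 to 40.1 counts. The hel-1 transcript itself was called in none of the comparisons (log2 fold change -0.16 ± 0.10 in hel-1 against wild type, adjusted p = 0.521), so gene counts do not show the lesion. In daf-2, replicate 2 stood apart from replicate 1: over all tested genes, their log2 difference had a standard deviation of 0.446, where the pairs of the other genotypes had 0.183 to 0.258. Its summed level of 12 pharynx markers was 157 CPM, against 18.9 to 27.7 CPM in the other 7 libraries, and its sum of 12 body wall muscle markers was 5075 CPM, against 2102 to 2643 CPM. Calls in daf-2 that are lost without that library are therefore named below. In whole-worm RNA, fewer cells of a type and less RNA per cell cannot be told apart.

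Most nhr genes were low in these adults. Of the 269, 169 had enough counts to be tested, 26 had no count in any library, and the other 74 had at least 1 count but were too low. The highest level of an untested member in any library was 0.723 CPM, for nhr-178 in daf-2 replicate 2. The tested members had a median level of 2.06 CPM, against 9.49 CPM over all 13722 tested genes. A mean of at least 10 CPM was reached by 24 members and one of at least 50 CPM by 4, nhr-66, nhr-49, nhr-114 and nhr-23, which together held 33.6% of the summed level of the family.

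Chromosome V carries 167 of the 269 genes, and these were low: 107 were tested, their median level was 1.60 CPM, and 4 had a mean of at least 10 CPM. The 102 members on the other chromosomes gave 62 tested genes with a median of 6.41 CPM, and 20 of them had a mean of at least 10 CPM. Of all members, 159 lay within 10000 bases of another nhr gene, 122 of these on chromosome V; 95 of the 159 were tested, as were 74 of the 110 that lie farther apart.

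**Figure D1:**
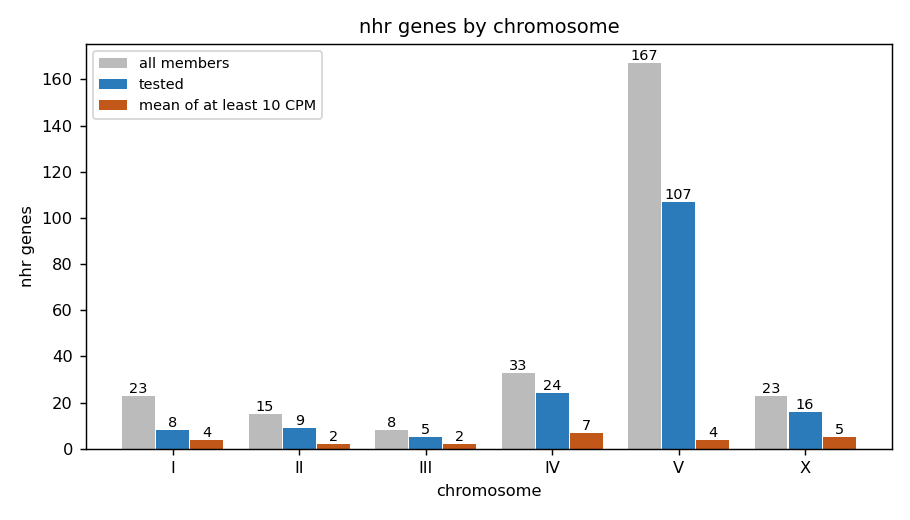
Number of nhr genes on each chromosome (grey), the number with enough counts to be tested (blue) and the number with a mean of at least 10 CPM over the 8 libraries (orange). Chromosome V holds 167 of the genes and 4 of the 24 with at least 10 CPM.

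Summed over all members, the family stood at 1198 and 1135 CPM in hel-1;daf-2, at 1224 and 1273 CPM in daf-2, at 1195 and 1315 CPM in hel-1, and at 1100.5 and 1098.6 CPM in wild type. The 2 wild-type libraries were the lowest of the 8, hel-1 overlapped both other mutants, and the daf-2 libraries lay above those of the double mutant. As the mean and standard deviation of 2 libraries, this is 1167 ± 44.4, 1248 ± 34.5 and 1255 ± 84.9 CPM in the double mutant, daf-2 and hel-1, and 1099.5 ± 1.31 CPM in wild type. No test was run on this sum.

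Per kilobase of exon, the highest member was nhr-114, with a mean of 69.8 CPM per kb over the 8 libraries. NHR-114 protects the germ line on diets low in vitamin B12 or tryptophan. It was followed by nhr-49 at 52.0, nhr-23 at 26.3, nhr-66 at 24.3 and nhr-68 at 23.9 CPM per kb. The libraries of nhr-114 spanned 51.4 to 90.99 CPM per kb and those of nhr-49 spanned 46.7 to 57.1, so that these neighbours in the order overlapped; nhr-49 lay above nhr-23, whose highest library was 29.2, in every library. The ranges of nhr-23 (21.1 to 29.2), nhr-66 (21.8 to 27.4) and nhr-68 (16.3 to 34.5 CPM per kb) overlapped one another.

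**Figure D2:**
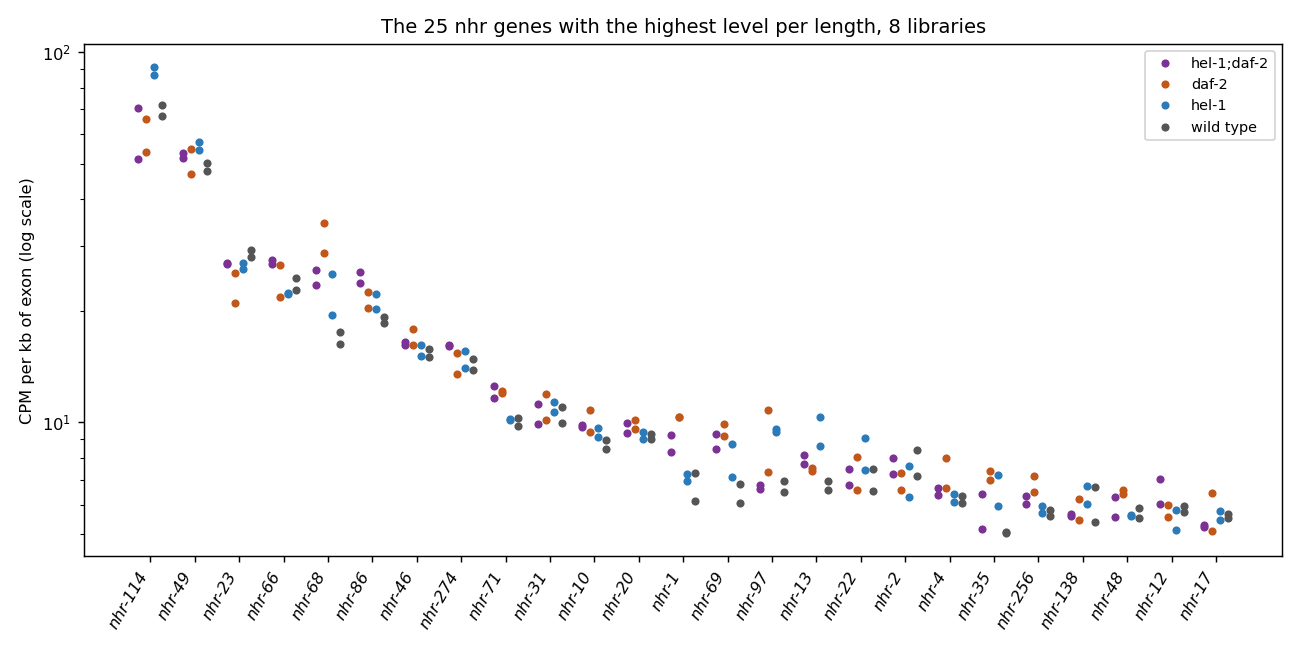
Level of the 25 nhr genes highest per length, in CPM per kilobase of exon on a log axis; each point is 1 library, coloured by genotype. nhr-114 and nhr-49 lead with means of 69.8 and 52.0 CPM per kb, and nhr-68 shows its 2 highest points in daf-2.

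The lipid regulators NHR-49, NHR-80 and NHR-13 act on fatty acid desaturation, and NHR-49 also on the fasting response and fatty acid oxidation. None of the 3 genes passed in any of the comparisons. The gene nhr-49 (WBcel235 chromosome I, 9869651 to 9874680, plus strand) stood at 113.9 and 110.4 CPM in hel-1;daf-2, 117 and 99.7 CPM in daf-2, 116 and 122 CPM in hel-1, and 102 and 107 CPM in wild type. Both hel-1 libraries lay above those of the double mutant, and these above wild type, while the daf-2 pair spread from the lowest level of all to within the range of hel-1. Its log2 fold change was 0.05 ± 0.09 in daf-2 against wild type (edgeR, adjusted p = 0.68) and 0.19 ± 0.09 in hel-1 against wild type (adjusted p = 0.445).

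The gene nhr-80 (chromosome III, 11985 to 14869, minus strand) had 6.25 and 5.65 CPM in hel-1;daf-2, 6.90 and 7.21 CPM in daf-2, 6.999 and 9.60 CPM in hel-1, and 5.46 and 4.94 CPM in wild type. All daf-2 and hel-1 libraries lay above all of the double mutant and of wild type. The log2 fold changes were 0.44 ± 0.19 in daf-2 (adjusted p = 0.124) and 0.67 ± 0.19 in hel-1 (adjusted p = 0.235), both against wild type. The gene nhr-13 (chromosome V, 2192485 to 2196827, plus strand) had 11.6 and 10.98 CPM in hel-1;daf-2, 10.7 and 10.5 CPM in daf-2, 12.2 and 14.7 CPM in hel-1, and 9.30 and 9.87 CPM in wild type. Its highest 2 libraries were those of hel-1 and its lowest 2 those of wild type, with a log2 fold change of 0.49 ± 0.13 in hel-1 against wild type (adjusted p = 0.213). Against hel-1, the double mutant stood at -0.48 ± 0.19 for nhr-80 (adjusted p = 0.184) and -0.25 ± 0.13 for nhr-13 (adjusted p = 0.292).

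In daf-2 against wild type, 15 nhr genes rose and 1 fell among the 169 tested. That is 8.88% and 0.592% of them, where 12.1% of all tested genes rose and 7.21% fell, so the share that rose was not above that of all genes. The count that rose depended on single libraries: it was 44 without daf-2 replicate 1, 6 without daf-2 replicate 2, 4 without wild-type replicate 1 and 1 without wild-type replicate 2. It was 7 without either hel-1 library and 5 without either double-mutant library. Scaling by DESeq2's size factors gave 9 that rose and 2 that fell. The shares of all tested genes called in these other fits are not given here, so these counts cannot be set against all genes. The 6 genes called both with and without daf-2 replicate 2 were nhr-1, nhr-62, nhr-68, nhr-76, nhr-79 and nhr-202. Of 17 calls made over the 4 comparisons, 1 was made in all 8 fits that each left out a library, that of nhr-62 in daf-2.

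**Figure D3:**
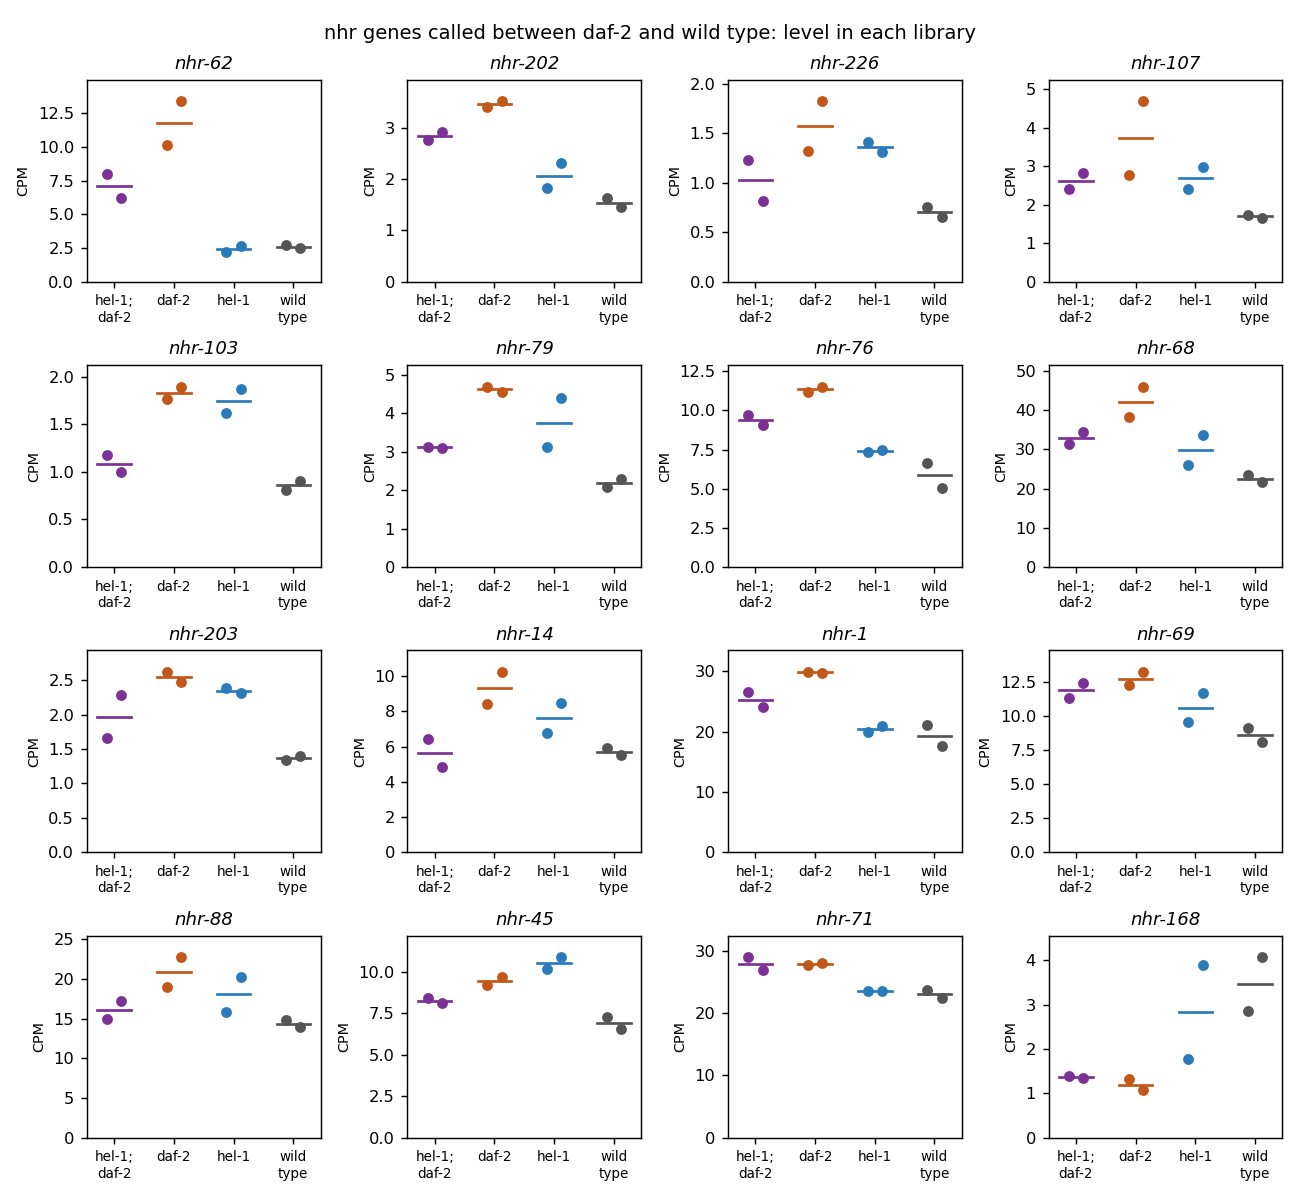
Level in CPM, from 0, of the 16 nhr genes that passed the test in daf-2 against wild type; each point is 1 library and the bar is the mean of the 2 libraries of a genotype. nhr-62 is high in both genotypes with daf-2(e1370) and low in the other genotypes, and nhr-168 is the gene that fell.

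The largest change among the called members was that of nhr-62 (chromosome I, 9839598 to 9844809, plus strand). NHR-62 is a receptor of the HNF4 type that worms need for the longer life that dietary restriction gives. It had 7.96 and 6.21 CPM in hel-1;daf-2, 10.1 and 13.4 CPM in daf-2, 2.20 and 2.68 CPM in hel-1, and 2.70 and 2.52 CPM in wild type. The 4 libraries with daf-2(e1370) stood above the 4 without it, and the double mutant lay between daf-2 and wild type. It rose by 2.17 ± 0.22 on the log2 scale in daf-2 against wild type (4.50-fold, adjusted p = 0.00164), and by 1.97 to 2.33 when single libraries were left out. It also rose in the double mutant against hel-1, by 1.54 ± 0.22 (2.91-fold, adjusted p = 0.00914), a call lost without replicate 1 of hel-1 or without replicate 1 of the double mutant, with adjusted p-values of up to 0.073. In the double mutant against daf-2 its value of -0.73 ± 0.21 did not pass (adjusted p = 0.26).

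On the chromosome, nhr-62 is followed by nhr-49, 24841 bases away, and nhr-49 by nhr-69 (9879183 to 9881504, minus strand), 4502 bases away. NHR-69 is known to act with the SMAD protein DAF-8 on insulin secretion. The gene nhr-69 had 11.4 and 12.5 CPM in hel-1;daf-2, 12.3 and 13.3 CPM in daf-2, 9.57 and 11.7 CPM in hel-1, and 9.13 and 8.10 CPM in wild type. Every mutant library lay above both wild-type libraries, and in daf-2 it rose by 0.57 ± 0.15 on the log2 scale (adjusted p = 0.0358), while nhr-49 between the called pair stood at 0.05. The call of nhr-69 was made in 3 of the 8 fits without 1 library, and lost without either wild-type or double-mutant library or without daf-2 replicate 2. Part of its exons overlaps the gap junction gene inx-20 on the other strand. It was chosen for description after its values were seen.

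Among the 7 receptors listed for lipid metabolism and fasting (nhr-49, nhr-80, nhr-13, nhr-66, nhr-62, nhr-64 and nhr-76), the median log2 fold change in daf-2 was 0.20. Of the 7, 2 rose and none fell, beside 12.1% and 7.21% of all tested genes. The second was nhr-76 (chromosome IV, 627537 to 633963, plus strand), whose product drives fat loss in the intestine downstream of serotonin signalling. It had 9.71 and 9.06 CPM in hel-1;daf-2, 11.2 and 11.5 CPM in daf-2, 7.34 and 7.45 CPM in hel-1, and 6.66 and 5.06 CPM in wild type. The 4 genotypes did not overlap, with daf-2 highest and wild type lowest, and the gene rose by 0.95 ± 0.16 on the log2 scale in daf-2 (adjusted p = 0.0115; the call was lost when wild-type replicate 2 was left out).

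The gene nhr-68 (chromosome V, 11573440 to 11575709, plus strand) encodes a receptor that, after NHR-10, switches on the propionate shunt when vitamin B12 is scarce. It had 31.3 and 34.3 CPM in hel-1;daf-2, 38.1 and 46.0 CPM in daf-2, 25.98 and 33.5 CPM in hel-1, and 23.3 and 21.7 CPM in wild type. Both daf-2 libraries were the highest and both wild-type libraries the lowest, and the double mutant overlapped hel-1. It rose by 0.90 ± 0.14 on the log2 scale in daf-2 (1.87-fold, adjusted p = 0.00834; adjusted p = 0.0777 without wild-type replicate 2). In the list of 3 receptors for vitamin B12, propionate and methionine it was the member that rose, and nhr-10 and nhr-114 did not pass the test. The gene nhr-101, which ends 890 bases before nhr-68 begins, stood at 0.36 ± 0.26 in daf-2 (adjusted p = 0.334).

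In daf-2, 12.1% of all tested genes rose and 7.21% fell. Of the 9 listed genes of propionate breakdown, the shunt and the B12-dependent pathway together, 3 rose and 1 fell in daf-2. Those that rose belong to the B12-dependent pathway: pccb-1 and pcca-1 encode the subunits of propionyl-CoA carboxylase, and mce-1 encodes methylmalonyl-CoA epimerase. The gene pccb-1 had 293 and 294 CPM in hel-1;daf-2, 289 and 318 CPM in daf-2, 167 and 174 CPM in hel-1, and 166 and 176.1 CPM in wild type. Its level was thus high in both genotypes with daf-2(e1370), by 0.83 ± 0.08 on the log2 scale in daf-2 against wild type (adjusted p = 0.0014) and by 0.78 ± 0.08 in the double mutant against hel-1 (adjusted p = 0.00253). The gene that fell was hach-1, a hydrolase of the shunt, by 0.56 ± 0.11 in daf-2 (adjusted p = 0.0176) and by 0.68 ± 0.11 in the double mutant against hel-1 (adjusted p = 0.016). Both pccb-1 calls were made in all 8 fits without 1 library. The pcca-1 call was made in 2 of them, those without a daf-2 library, and the mce-1 call in 1, that without daf-2 replicate 1; without daf-2 replicate 2 mce-1 stood at 0.28, and DESeq2 did not call it (adjusted p = 0.053). The hach-1 call in daf-2 was lost without either wild-type library, and that in the double mutant without hel-1 replicate 2 or either double-mutant library.

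Among the 8 receptors listed for xenobiotics, steroids, stress and immunity, 2 rose in daf-2 and none fell, beside 12.1% and 7.21% of all tested genes. The median log2 fold change of the 8 was 0.37. The gene nhr-14 (chromosome X, 8473722 to 8476178, minus strand), whose product is known from iron uptake and innate immunity in the intestine, had 6.40 and 4.86 CPM in hel-1;daf-2, 8.39 and 10.2 CPM in daf-2, 6.79 and 8.48 CPM in hel-1, and 5.93 and 5.50 CPM in wild type. Both daf-2 libraries lay above wild type and the double mutant, and the rise was 0.70 ± 0.20 on the log2 scale (adjusted p = 0.0468). The gene nhr-45 (chromosome X, 4656433 to 4660318, minus strand), linked to detoxification gene expression under mitochondrial stress, had 8.39 and 8.09 CPM in hel-1;daf-2, 9.21 and 9.70 CPM in daf-2, 10.1 and 10.8 CPM in hel-1, and 7.24 and 6.55 CPM in wild type. Here hel-1 was the highest genotype and none overlapped, with a rise of 0.45 ± 0.13 in daf-2 (adjusted p = 0.0497) and a value of 0.60 ± 0.13 in hel-1 that did not pass (adjusted p = 0.127). Both calls were lost in each fit that left out a library other than daf-2 replicate 1.

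A further 6 called genes by the naming rule lie on chromosome V and have no role stated here. The gene nhr-202 (462588 to 464963, plus strand) had 2.77 and 2.92 CPM in hel-1;daf-2, 3.40 and 3.52 CPM in daf-2, 1.83 and 2.31 CPM in hel-1, and 1.63 and 1.46 CPM in wild type. It rose by 1.16 ± 0.23 in daf-2 (adjusted p = 0.017; lost when either wild-type library was left out), and the 4 genotypes did not overlap. Its neighbour nhr-201 shares 36 exon bases with it on the same strand, so reads there are uncertain, and stood at 0.69 ± 0.39 (adjusted p = 0.216). The next gene, nhr-203, 688 bases from nhr-202 and chosen after its values were seen, rose by 0.89 ± 0.25 (adjusted p = 0.0442; called in 1 of the 8 fits without a library, that without daf-2 replicate 1).

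The gene nhr-79 (chromosome V, 19207676 to 19211895, minus strand) had 3.13 and 3.11 CPM in hel-1;daf-2, 4.70 and 4.56 CPM in daf-2, 3.13 and 4.40 CPM in hel-1, and 2.09 and 2.30 CPM in wild type, with all mutant libraries above wild type. It rose by 1.08 ± 0.22 in daf-2 (adjusted p = 0.0204; lost when either library of wild type or of the double mutant was left out). The rises of nhr-226 (1.16 ± 0.34, adjusted p = 0.0484), nhr-107 (1.14 ± 0.30, adjusted p = 0.0361) and nhr-103 (1.09 ± 0.27, adjusted p = 0.0323) were each called in 1 of the 8 fits without a library, that without daf-2 replicate 1. These 3 genes were low, with at most 1.82, 4.69 and 1.89 CPM in any library. Without daf-2 replicate 2, nhr-107 stood at 0.73.

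The member that fell in daf-2 was nhr-168 (chromosome V, 13331114 to 13333871, minus strand). It had 1.38 and 1.35 CPM in hel-1;daf-2, 1.32 and 1.07 CPM in daf-2, 1.78 and 3.90 CPM in hel-1, and 2.85 and 4.07 CPM in wild type. Both genotypes with daf-2(e1370) lay below wild type, and hel-1 overlapped it. The fold change was -1.53 ± 0.40 on the log2 scale (adjusted p = 0.0358; lost without either wild-type or double-mutant library or without daf-2 replicate 2). The other called genes, nhr-1, nhr-88 and nhr-71, lay outside the naming rule and rose by 0.62 ± 0.11, 0.54 ± 0.15 and 0.27 ± 0.08 (adjusted p = 0.0112, 0.0456 and 0.0474). The call of nhr-1 was lost without wild-type replicate 2, and those of nhr-88 and nhr-71 without any 1 library other than daf-2 replicate 1.

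Receptors of moulting and development gave no call. Of the 12 listed, 11 were tested, and their median log2 fold change in daf-2 was 0.08; nhr-67, a counterpart of the fly gene tailless, was too low to test. The closest to the threshold was nhr-23, the counterpart of the vertebrate ROR receptors that drives moulting, with 68.1 and 67.6 CPM in hel-1;daf-2, 63.9 and 53.2 CPM in daf-2, 68.004 and 65.4 CPM in hel-1, and 70.6 and 73.9 CPM in wild type. Both wild-type libraries were the highest, and daf-2 stood at -0.30 ± 0.09 (adjusted p = 0.0504; DESeq2 called it lower). Of 10 listed moulting genes downstream of NHR-23, 3 rose in daf-2, beside 12.1% of all tested genes. These 3 were nas-37, which encodes a protease that helps shed the old cuticle, noah-1 and mlt-8 (0.76 ± 0.12, 1.11 ± 0.26 and 1.16 ± 0.32, with adjusted p = 0.00993, 0.0288 and 0.0408). The nas-37 call was lost without wild-type replicate 2, and the noah-1 call without either library of wild type or of the double mutant. The mlt-8 call was made in 1 of the 8 fits without a library, that without daf-2 replicate 2, and not by DESeq2 (adjusted p = 0.0597); without daf-2 replicate 1 mlt-8 stood at 0.74. Of the 12 hypodermis markers, which include nhr-25 and share dpy-7, rol-6 and bli-1 with that list and whose sum was 4081 CPM in daf-2 replicate 2 and 1502 to 2375 CPM in the other libraries, 2 rose in daf-2; the part of this in the moulting genes was not tested. Of 10 receptors with counterparts in other phyla, 8 were tested and none passed.

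**Figure D4:**
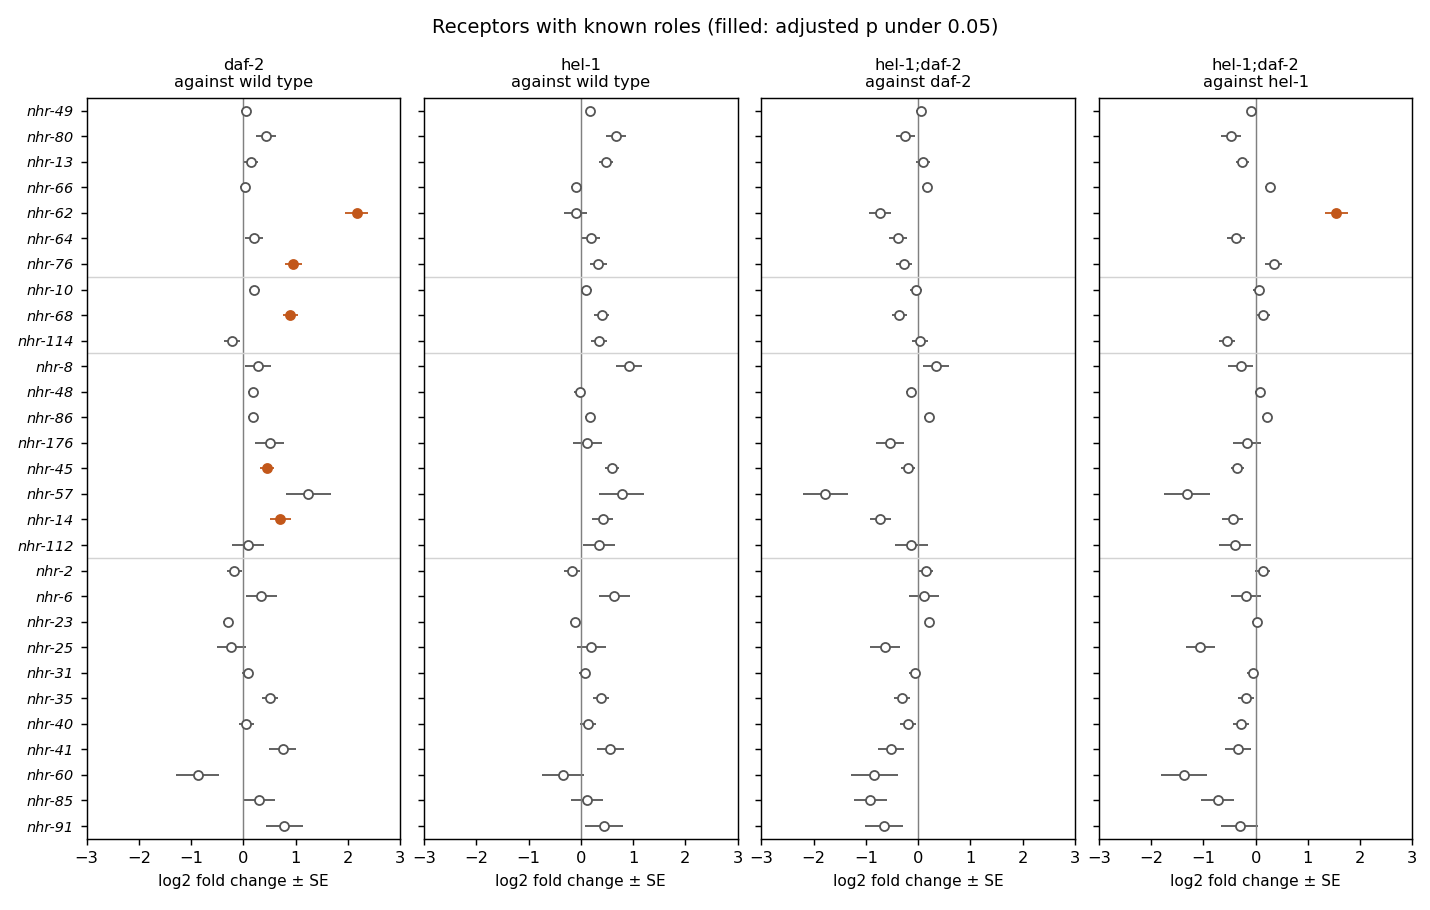
log2 fold change ± standard error of the tested receptors with known roles in 4 comparisons; grey lines part the lists for lipid metabolism and fasting, vitamin B12 and propionate, xenobiotics and stress, and moulting and development. Filled points passed an adjusted p of 0.05: nhr-62, nhr-76, nhr-68, nhr-45 and nhr-14 in daf-2 and nhr-62 in the double mutant against hel-1.

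In hel-1 against wild type, no nhr gene passed the test of edgeR in either direction, where 0.364% of all tested genes rose and 0.051% fell. At an unadjusted p under 0.05, 22 members were higher and none lower, 13% of the tested members against 8.91% of all tested genes for higher and 3.29% for lower. DESeq2 called 1, nhr-8, higher, and edgeR called 2 higher without either daf-2 library. NHR-8 acts in cholesterol and bile acid-like hormone balance and in xenobiotic resistance. The gene nhr-8 had 10.5 and 9.44 CPM in hel-1;daf-2, 7.41 and 8.23 CPM in daf-2, 9.33 and 14.99 CPM in hel-1, and 5.41 and 7.45 CPM in wild type. Its hel-1 libraries lay above wild type but far apart from each other, with a log2 fold change of 0.92 ± 0.25 (edgeR, adjusted p = 0.217). Like nhr-57, nhr-105 and nhr-97 below, nhr-8 was chosen for description after its values were seen.

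Between the double mutant and daf-2, no nhr gene passed either, where 0.0146% of all tested genes rose and 0.0364% fell. At an unadjusted p under 0.05, 2 members were higher and 22 lower, 1.18% and 13% of the tested members, beside 4.01% and 12.8% of all tested genes. DESeq2 called none. Without daf-2 replicate 1, edgeR called 5 higher and 23 lower; the 2 daf-2 libraries are the ones that differed most from each other. The smallest p among members was that of nhr-57, a transcript that the hypoxia factor HIF-1 induces. It had 0.631 and 0.565 CPM in hel-1;daf-2, 1.61 and 2.49 CPM in daf-2, 1.09 and 1.90 CPM in hel-1, and 1.10 and 0.621 CPM in wild type. The double mutant lay below both single mutants without overlap and next to the lower wild-type library, at -1.78 ± 0.44 against daf-2 (adjusted p = 0.249).

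Between the double mutant and hel-1, nhr-62 rose and no member fell, 0.592% and 0% of the tested members, where 2.96% of all tested genes rose and 2.65% fell. At an unadjusted p under 0.05, 5 members were higher and 28 lower, 2.96% and 16.6%, beside 11.9% and 11% of all tested genes. The calls of lower members moved with the fit: DESeq2 made 4 (nhr-3, nhr-97, nhr-105 and nhr-114), a fit on the 4 libraries compared made 17, and edgeR made 13 without daf-2 replicate 1, 14 without daf-2 replicate 2 and 1 without hel-1 replicate 1. The calls of higher members were 0 without replicate 1 of hel-1 or of the double mutant and 3 without either daf-2 library. The shares of all tested genes called in these fits are not given here. The gene nhr-105, the closest to the threshold, had 2.68 and 2.73 CPM in hel-1;daf-2, 2.71 and 4.26 CPM in daf-2, 5.20 and 5.61 CPM in hel-1, and 5.93 and 5.50 CPM in wild type. Both genotypes with daf-2(e1370) lay below the others, and the double mutant stood at -0.999 ± 0.237 against hel-1 (adjusted p = 0.0526). For nhr-114 the libraries were 107 and 78.2 CPM in hel-1;daf-2, 101 and 81.8 CPM in daf-2, 132 and 138 CPM in hel-1, and 109 and 102 CPM in wild type. The hel-1 libraries were the highest, and the double mutant stood at -0.54 ± 0.15 against them (adjusted p = 0.0862).

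The interaction asks whether hel-1 mutation acts differently with and without daf-2(e1370): it is the log2 fold change of the double mutant against daf-2, less that of hel-1 against wild type. No nhr gene passed its test, where 0.0729% of all tested genes were above 0 and 0.751% below it. At an unadjusted p under 0.05, 1 member was above 0 and 52 below, which is 30.8% of the tested members for the last group, beside 9.41% and 18.3% of all tested genes. DESeq2 called 1, nhr-97, below 0. The gene nhr-97 had 31.6 and 30.96 CPM in hel-1;daf-2, 34.3 and 50.4 CPM in daf-2, 43.9 and 44.7 CPM in hel-1, and 32.4 and 30.2 CPM in wild type. Both single mutants lay above wild type and above the double mutant, and the interaction was -0.94 ± 0.22 (edgeR, adjusted p = 0.0958). The median interaction of the members was -0.78 without daf-2 replicate 1 and -0.47 without daf-2 replicate 2. That of all tested genes was -0.17 and -0.02. In the main fit, genes with a mean of 1 to 10 CPM had a median interaction of -0.68 (106 members) and -0.63 (all 3891). Below 1 CPM the medians of members and all genes were -0.81 and -1.08, and at 10 CPM or more -0.17 and 0.19.

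Read as a whole, tested nhr genes were mostly higher in each single mutant than in wild type and mostly lower in the double mutant than in each single mutant, by small amounts. The median log2 fold change of the 169 was 0.31 in daf-2 and 0.32 in hel-1 against wild type, and -0.29 and -0.27 in the double mutant against daf-2 and against hel-1. Over all tested genes the same medians were 0.10, 0.02, -0.02 and -0.01. Positive values were found for 84% of the members in daf-2 (56.9% of all tested genes) and 82.2% in hel-1 (52.6%), and for 18.3% in the double mutant against daf-2 (48.4%) and 26.6% against hel-1 (48.5%). The interaction had a median of -0.64 over the members and -0.09 over all tested genes, and was positive for 13% of the members and 46.3% of all tested genes. Both daf-2 libraries lay above both wild-type libraries for 106 members (62.7%) and below them for 11 (6.51%), beside 35.7% and 28.9% of all tested genes. For hel-1 these counts were 90 (53.3%) and 6 (3.55%), beside 30% and 29.2%. The double mutant lay below both libraries of daf-2 for 92 members (54.4%) and above for 14 (8.28%), beside 28.5% and 24.8% of all tested genes. It lay below those of hel-1 for 81 (47.9%) and above for 28 (16.6%), beside 34.5% and 32.4%. Such shares for genes of the same level are not given here. These medians moved with single libraries. In daf-2 against wild type the median of the members was 0.49 without daf-2 replicate 1 and 0.22 without daf-2 replicate 2, and without the second of these libraries that of the double mutant against daf-2 was -0.13. Without hel-1 replicate 2 the median was 0.18 in hel-1 against wild type and -0.13 in the double mutant against hel-1.

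Much of this pattern was common to genes of the same level. Among genes with a mean of 1 to 10 CPM, the 106 nhr genes had a median of 0.31 in daf-2, where all 3891 tested genes of that level had 0.45, and positive values were found for 85.8% of the members and 79.2% of the genes. In the same range the medians were 0.38 and 0.26 for members and all genes in hel-1, -0.32 and -0.32 in the double mutant against daf-2, and -0.28 and -0.14 against hel-1. Those of the interaction were -0.68 and -0.63. Of these 106 members 9.43% rose in daf-2, beside 17.8% of all genes of that level. Among genes with a mean of at least 10 CPM the members and all genes stood on opposite sides of 0: the median of the 24 nhr genes was 0.16 in daf-2 and 0.12 in hel-1, where that of all 6778 genes was -0.11 and -0.08. Of the 24, 21 were positive in daf-2 and 20 in hel-1 (87.5% and 83.3%, beside 33.9% and 30.1% of all genes of that level), and 5 rose in daf-2 (20.8%, beside 10.5%). Without daf-2 replicate 2 the daf-2 medians of members and all genes were 0.24 and 0.23 at 1 to 10 CPM, and 0.16 and -0.03 at 10 CPM or more; without daf-2 replicate 1 they were 0.49 and 0.57 at 1 to 10 CPM. In the double mutant against daf-2 the medians at 1 to 10 CPM were -0.15 and -0.10 without daf-2 replicate 2. Without hel-1 replicate 2 the medians of members and all genes at 1 to 10 CPM were 0.19 and 0.18 in hel-1 against wild type, and -0.14 and -0.06 in the double mutant against hel-1; at 10 CPM or more they were 0.06 and -0.07 in hel-1. With DESeq2 size factors the daf-2 medians at 10 CPM or more were 0.10 and -0.18. Whether these members differ from other genes of their level was not tested.

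**Figure D5:**
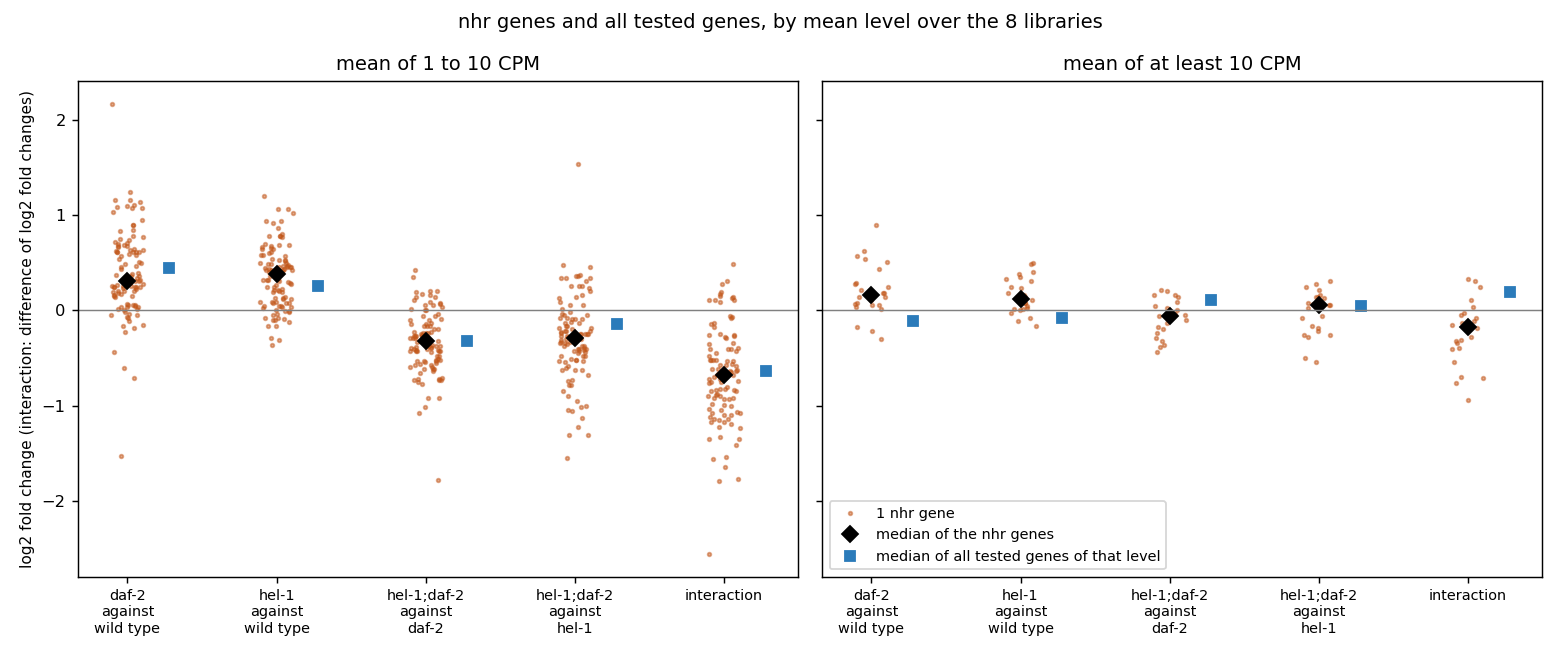
log2 fold changes of the tested nhr genes (orange points) with their median (black diamond), beside the median of all tested genes of the same mean level (blue square), for 1 to 10 CPM on the left and at least 10 CPM on the right; the last column is the interaction. At 1 to 10 CPM both medians lie on the same side of 0 in each column; at 10 CPM or more they lie on opposite sides except in the double mutant against hel-1 (0.06 and 0.04).

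The shift also varied between libraries of 1 genotype. The median log2 difference of replicate 2 minus replicate 1 over the tested members was 0.15 in daf-2, with 137 of 169 higher in replicate 2, and 0.13 in hel-1, with 136 higher. It was -0.03 in the double mutant (69 higher) and -0.03 in wild type (80 higher). The summed level of 12 neuron markers was 160 and 163 CPM in hel-1;daf-2, 175 and 250 CPM in daf-2, 189 and 197 CPM in hel-1, and 161 and 156 CPM in wild type. Libraries of both single mutants thus lay above those of the double mutant and wild type in neuron markers. The same split was seen in hypodermis markers, with 2148 to 4081 CPM in the single mutants and 1502 to 1929 CPM in the double mutant and wild type, and in body wall muscle markers, with 2592 to 5075 CPM and 2102 to 2522 CPM. The part of these 3 lists in the nhr values was not tested. Oocyte and germline markers summed to 8652 and 8435 CPM in hel-1;daf-2, 8412 and 6571 CPM in daf-2, 8481 and 7794 CPM in hel-1, and 9172 and 9711 CPM in wild type, and their part was not tested either. The 12 sperm markers summed to 23.4 and 23.8 CPM in hel-1;daf-2, 27.9 and 69.5 CPM in daf-2, 62.8 and 49.7 CPM in hel-1, and 74.5 and 19.7 CPM in wild type, so that the libraries of daf-2 and of wild type lay far apart; none passed the test in these 4 comparisons, and their part was not tested. Intestine markers, 11 in number, summed to 3662 and 3796 CPM in hel-1;daf-2 and 3481 and 3434 CPM in daf-2. In hel-1 they summed to 3863 and 5014 CPM, and in wild type to 4525 and 4604.5 CPM. Their lowest libraries were those of daf-2, where 1 marker rose and 3 fell, beside 12.1% and 7.21% of all tested genes. Pharynx markers summed to 18.9 and 21.1 CPM in hel-1;daf-2 and 25.4 and 157 CPM in daf-2. They summed to 22.6 and 27.7 CPM in hel-1 and 25.9 and 18.9 CPM in wild type, which overlapped. The part of both lists was not tested.

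Members on and off chromosome V had medians on the same side of 0 in each comparison. For those on it, the median log2 fold change was 0.39 in daf-2 against wild type, beside 0.27 for the 62 tested members elsewhere, and 0.36 beside 0.24 in hel-1. Of the 15 members that rose in daf-2, 7 were among the 107 tested on chromosome V and 8 among the 62 tested elsewhere. Of all tested genes, 12.1% rose. Within 10000 bases of another nhr gene lay 8 of the 16 members that changed, as did 95 of the 169 tested members. The nearest neighbours of nhr-68, nhr-69, nhr-103, nhr-107, nhr-168, nhr-202 and nhr-226 were not themselves called in daf-2. The nearest neighbour of nhr-203 was nhr-202, which was called.

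The lists of nuclear receptors named otherwise, receptor partners and ligand-pathway genes held 2, 7 and 5 tested genes. Of these, 1, 0 and 1 rose in daf-2 and none fell, beside 12.1% and 7.21% of all tested genes. In the double mutant against hel-1, 0, 0 and 1 rose, beside 2.96% of all tested genes. Of daf-12, fax-1, odr-7, sex-1 and unc-55, only daf-12 and sex-1 had enough counts to be tested. The gene daf-12, which encodes the receptor for dafachronic acids that governs dauer entry, had 11.99 and 12.1 CPM in hel-1;daf-2, 16.3 and 18.3 CPM in daf-2, 12.3 and 11.03 CPM in hel-1, and 11.9 and 10.1 CPM in wild type. Both daf-2 libraries stood above the other 6, and it rose by 0.66 ± 0.13 in daf-2 (adjusted p = 0.0189; the call was lost when either wild-type library was left out). None of the 7 listed partners, among them the Mediator subunit gene mdt-15, passed in any comparison. Of 5 tested genes of sterol and dafachronic acid metabolism, strm-1, a sterol methyltransferase that lowers dafachronic acid precursors, rose in daf-2 (1.61 ± 0.36, adjusted p = 0.0246) and in the double mutant against hel-1 (2.06 ± 0.38, adjusted p = 0.024), at levels of at most 1.55 CPM in any library. Both strm-1 calls were lost when either double-mutant library was left out, the first also without either wild-type library and by DESeq2 (adjusted p = 0.0666), and the second also without either hel-1 library or wild-type replicate 2.

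The genes nhr-49, nhr-80 and nhr-13 did not pass, which with 2 libraries per genotype does not show that they were unchanged. Some desaturase genes that they regulate were called. Of 11 listed genes downstream of NHR-49, 4 rose in daf-2 (fat-5, fat-6, hacd-1 and icl-1) and fat-7 fell. In hel-1 against wild type 3 rose, fat-5, fat-6 and fat-7, and in the double mutant against hel-1 fat-5, fat-7 and cpt-5 fell. Of all tested genes, 12.1% rose and 7.21% fell in daf-2. In hel-1 0.364% of them rose, and in the double mutant against hel-1 2.65% fell. Of the 8 fits without 1 library, all made the calls of fat-5 and fat-7 in daf-2, of fat-5 in hel-1, and of fat-7 in the double mutant. In daf-2, fat-6 and icl-1 were called in 6 of them and lost without either wild-type library, and hacd-1 was lost without wild-type replicate 2. The gene icl-1, outside the naming rule and chosen after its values were seen, had 166 and 379 CPM in the daf-2 libraries and 73.2 and 72.3 CPM in wild type, and its log2 fold change of 1.90 ± 0.35 was 1.20 without daf-2 replicate 2. In hel-1, fat-7 was lost without either hel-1 or wild-type library, and fat-6 without hel-1 replicate 2 or either library of wild type or of the double mutant (adjusted p up to 0.36 and 0.294). In the double mutant, fat-5 was lost without hel-1 replicate 2 and cpt-5 without hel-1 replicate 1, and both without either double-mutant library. The stearoyl-CoA desaturase gene fat-7 had 11.9 and 4.799 CPM in hel-1;daf-2 and 13.02 and 12.5 CPM in daf-2. It had 308 and 318 CPM in hel-1, and 86.8 and 57.4 CPM in wild type. Over the same 8 libraries nhr-80 ranged from 4.94 to 9.60 CPM and nhr-49 from 99.7 to 122 CPM. For nhr-80, fat-5 and fat-6, all daf-2 and hel-1 libraries lay above the double mutant, and the double mutant above wild type. A link between receptor and desaturase levels was not tested.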

How the data were processed

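The authors deposited 1 table of expected counts per library, which the file headers show to be RSEM gene results. RSEM 1.3.1, HTSeq, Bowtie, TopHat2 and cutadapt are among the tools in the submitters' processing notes. The aligner behind the counts and the use of strand are not given in the sources used here. Of the identifiers, 46817 were in the WBcel235 annotation and 87 were not. Expected counts were rounded (2.03 to 2.79% of values per library were not whole). Of the nhr genes, 20 share at least 20 exon bases with a gene on the same strand and 39 with one on the other strand, and their counts are uncertain.

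Differences were tested over 13722 genes passing filterByExpr with edgeR's quasi-likelihood test (version 4.0.16, R 4.3.3; TMM scaling, 1 model of 4 group means over 8 libraries, 4 residual degrees of freedom, biological coefficient of variation 0.168), with Benjamini-Hochberg adjustment over all of them at 0.05. Adjusted p-values are from this test unless DESeq2 (1.42.0) is named. An error after ± is the standard error of a log2 fold change or, for a level in CPM, the SD over 2 libraries. Where cultures are not named, p-values measure only the spread between these libraries. The pipeline was also run on simulated counts, and the outcome is not given here. Those counts hold no library that stands apart as daf-2 replicate 2 does. Alternatives were DESeq2 size factors, DESeq2, no filter, a replicate block, only the groups compared, and leaving out each library.

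Named genes are nhr-49, nhr-80 and nhr-13, the 5 highest per length, up to 8 called members per direction with at least 1 CPM, called members of the role lists, and up to 4 called genes of each other list; exceptions are stated. The members and lists were chosen with earlier results of these data known.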

Additional observations from a re-analysis of the deposited data

Results flagged for a closer look

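No nhr gene passed the main edgeR test of whether the effect of hel-1 differed between the daf-2 and the wild-type background. DESeq2 called 1, nhr-97, and edgeR without a filter on low counts called 6. At an unadjusted p under 0.05, 1 member lay above 0 (0.592%, beside 9.41% of all tested genes) and 52 below (30.8%, beside 18.3%). Among genes with a mean of 1 to 10 CPM the median was -0.68 for members and -0.63 for all tested genes. Of the 11 listed genes downstream of NHR-49, 2 passed the main edgeR test, both below 0, as did 0.751% of all tested genes. The difference (hel-1 effect in daf-2 minus hel-1 effect in wild type, log2) was -2.78 for fat-5 (edgeR, adjusted p = 0.00565). The levels of fat-5 were 67.2 and 55.6 CPM in hel-1;daf-2, 86.5 and 89.8 CPM in daf-2, 95.8 and 124 CPM in hel-1, and 19.9 and 26.1 CPM in wild type. The difference was -1.11 for fat-6 (adjusted p = 0.0406), with 335 and 286 CPM in hel-1;daf-2, 366 and 342 CPM in daf-2, 358 and 445 CPM in hel-1, and 210.3 and 214 CPM in wild type. The fat-5 difference passed in all 8 fits without 1 library, that of fat-6 in 3 of them; the fat-6 call was also lost with DESeq2 size factors (adjusted p = 0.0545) and with a replicate block (adjusted p = 0.0619). The value of fat-7 was -2.73 and did not pass (adjusted p = 0.0558); it passed in 2 of the 8 fits without 1 library, with DESeq2 size factors (adjusted p = 0.0394), with a replicate block (adjusted p = 0.0359) and by DESeq2 (adjusted p = 0.00447).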

How the results depend on the processing

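With 2 libraries per genotype and 4 residual degrees of freedom, counts of called nhr genes moved with most settings, and the cause was not tested. The shares of all tested genes called under the other settings are not given here. The counts thus do not show whether nhr genes moved more than other genes. In daf-2, 22 members were called in both directions together without a filter on low counts, beside 16 in the main fit. In daf-2, the 15 that rose became 9 with DESeq2 size factors, 7 with DESeq2, 2 in a fit on the groups compared and 1 to 44 without 1 library (the lone library left is then assumed to vary like the other groups); the 1 that fell became 2, 2, 0 and 0 to 2, and 3 without a filter on low counts. In hel-1, the 0 that rose became 1 without a filter, 1 with DESeq2, 1 on the groups compared (nhr-97) and 0 to 2 without 1 library. In the double mutant against daf-2, 0 higher and 0 lower became 0 to 5 and 0 to 23 without 1 library, and 1 lower without a filter. Against hel-1, 1 higher became 3 on the groups compared and 0 to 3 without 1 library; 0 lower became 1 with size factors, 5 without a filter, 4 with DESeq2, 17 on the groups compared and 0 to 14 without 1 library. For the interaction, 0 above and 0 below became 0 to 2 and 0 to 45 without 1 library, and 6 below without a filter and 1 with DESeq2; it was not run on the groups compared. A replicate block gave 10 that rose and 1 that fell in daf-2, 1 and 0 in the double mutant against hel-1, and 0 elsewhere. Same-numbered libraries correlated between -0.479 and 0.226 in their deviations from the means of their genotypes. With 2 libraries per genotype, these values cannot decide whether the numbers pair samples.

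Among genes, signs turned only for values near 0. In daf-2, nhr-49 stood at -0.01 with size factors and with DESeq2 (-0.10 to 0.18 without 1 library) and nhr-66 at -0.03 with each (-0.15 to 0.19). Leaving out 1 library gave -0.05 to 0.20 for nhr-49 and -0.21 to 0.25 for nhr-114 in the double mutant against daf-2, and -0.26 to 0.03 for the nhr-49 interaction. Against hel-1 it gave -0.00 to 0.05 for nhr-23 and -0.03 to 0.34 for nhr-68. Of the other gene values under other settings, 311 kept direction and call, 49 lost and 11 gained a call; without 1 library these were 449, 143 and 15. With DESeq2 size factors the medians of the tested members were 0.24 and 0.29 for daf-2 and hel-1 against wild type, -0.24 and -0.26 for the double mutant against daf-2 and hel-1, and -0.56 for the interaction, with no change of sign. At 1 CPM a member rests on 31.7 to 40.1 counts per library, which limits the precision for most of the family.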
